A study of Sus scrofa with 21 samples.

Results

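Genes that move and sense short-chain fatty acids and lactate were followed in 21 Danish Landrace/Yorkshire piglets, in tissue of the distal small intestine. The set was 8 genes chosen by symbol: the carriers SLC16A1, SLC16A3, SLC5A8 and SLC5A12, the receptors FFAR2, FFAR3 and FFAR4, and BSG, which brings carriers of the SLC16A family to the cell surface. Of these, 5 of the 18661 genes in the files could be matched to a symbol of the set (SLC16A3, SLC5A8, SLC5A12, FFAR2 and FFAR4). SLC16A1, FFAR3 and BSG had no gene identifier in the table of pig gene names and were not analysed here. All piglets were fed milk replacer and were 24 to 25 days old at sampling. The starch group (n = 11) received that replacer with wheat added, and the control group (n = 10) the replacer alone. Each sample was 1 piglet, and neither the sex nor the litter of a piglet is recorded, nor a batch of preparation.

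Bacteria in the gut ferment carbohydrate that escapes digestion into acetate, propionate, butyrate and lactate. These small acids cross the apical membrane of epithelial cells on sodium-coupled carriers of the SLC5A family and move across membranes with protons on carriers of the SLC16A family. Free fatty acid receptors on enteroendocrine and immune cells sense them: FFAR2 responds to short-chain acids, whereas FFAR4 responds to long-chain fatty acids and so belongs to the set as a relative in the receptor family. The design asks whether starch added to milk alters gene expression in the gut.

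The 21 libraries held 6719264 to 8610458 expected counts, an expected count being the authors' estimate of the reads that belong to a transcript. Levels within a gene are given as CPM (counts scaled to the size of the library, corrected by TMM factors). Levels between genes are given as FPKM (fragments per kilobase of coding length, scaled to the library). The epithelium was present in every library: the 10 matched epithelial genes, among them EPCAM and KRT8, summed to 3652 to 9022 CPM in starch piglets and 4401 to 7822 CPM in control piglets. The markers of mature enterocytes were not present to the same extent in every library. The 11 matched enterocyte genes, among them APOA1, summed to 516 CPM in starch 3, 537 CPM in control 5 and 600.4 CPM in control 8. In the other 18 piglets they summed to 10117 CPM or more. These 3 piglets stood apart in several of the genes below, and the level of each member by diet is given with and without them. The order of levels, the transcripts and the pathway lists cover all 21. In such bulk tissue fewer cells of a type cannot be told apart from less RNA of a gene in each cell.

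None of the 5 genes differed between the diets: 0 of 5 passed an adjusted p of 0.05, where 0.00% of the 13127 genes tested did (edgeR quasi-likelihood test, Benjamini-Hochberg over all genes tested; adjusted p = 0.9998 for each of the 5). At an unadjusted p of 0.05 the count was 0 of 5, against 1.33% of all genes tested (0.404% higher and 0.922% lower on starch). The log2 fold change, starch minus control, was 0.27 for SLC16A3, 0.30 for SLC5A8, -0.09 for SLC5A12, 0.27 for FFAR2 and -0.80 for FFAR4. Its median over all genes tested was 0.00. The spread between piglets of the same diet was wide in every member, and the ranges of the diets overlapped in all 5.

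**Figure D1:**
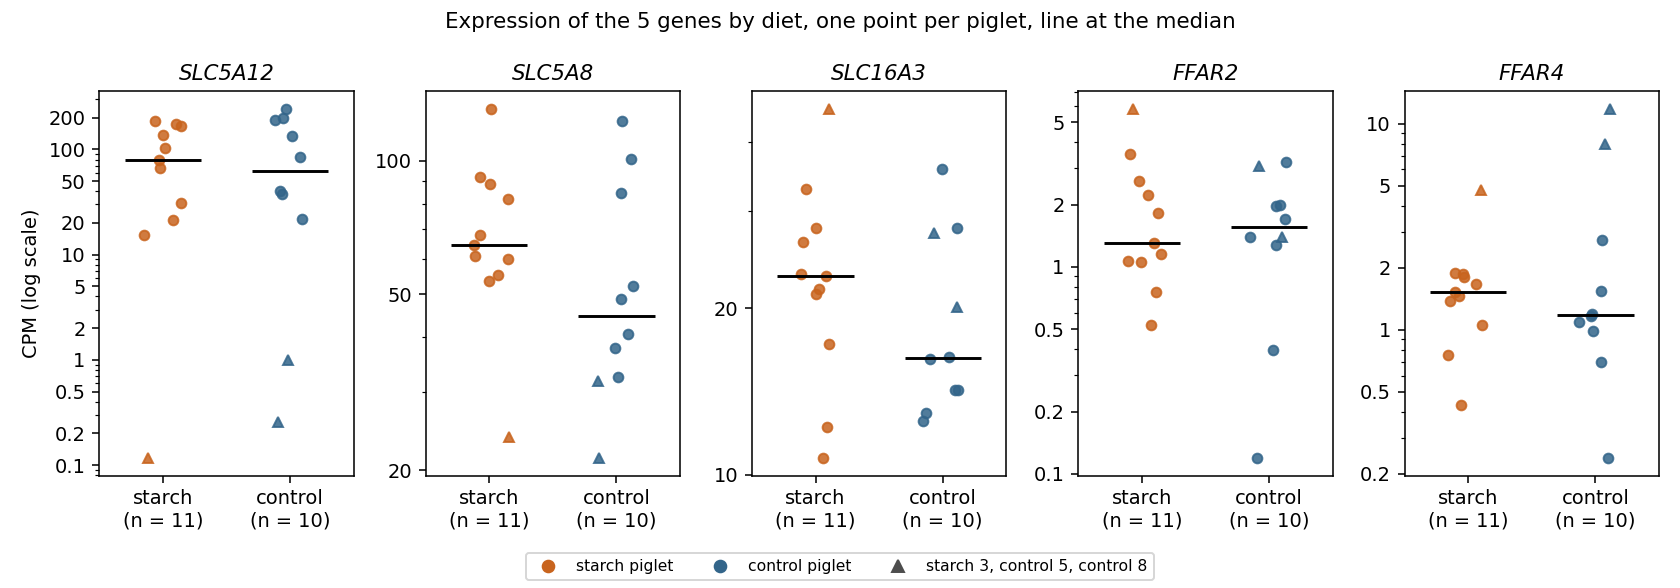
Level of each measured gene in CPM (log scale) in 11 starch and 10 control piglets, 1 point per piglet with a line at the median of the diet. Triangles mark starch 3, control 5 and control 8, which lie at the bottom for SLC5A12 (0.116 to 0.996 CPM) and at the top for FFAR4 (4.75 to 11.8 CPM).

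In their medians the carriers were more abundant per length than the receptors. SLC5A12 had the highest median over the 21 piglets at 39.38 FPKM, SLC5A8 followed at 30.75 FPKM, and SLC16A3 stood at 15.34 FPKM. The receptors FFAR2 and FFAR4 had medians of 1.52 and 1.31 FPKM. Neighbours in this order were not always apart. SLC5A12 exceeded SLC5A8 in 10 of 21 piglets, so these carriers have no fixed order here. SLC5A8 exceeded SLC16A3 in 18 of 21 piglets, all but starch 3, control 7 and control 8. SLC16A3 exceeded FFAR2 in 21 of 21, and FFAR2 exceeded FFAR4 in 11 of 21, so the receptors cannot be ordered either. SLC16A3 exceeded SLC5A12 in 6 of 21 piglets. In 3 of these, starch 3, control 5 and control 8, SLC5A12 was also below both receptors, and in starch 3 it read 0.07 FPKM, where FFAR2 read 6.11 FPKM and FFAR4 4.96 FPKM.

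SLC5A12, the low-affinity sodium-coupled carrier of lactate and other monocarboxylates, varied more between piglets than nearly every other gene. It lay between 0.116 and 186 CPM in starch piglets, with a median of 79.7 CPM, and between 0.256 and 242 CPM in control piglets, with a median of 62.0 CPM. The lowest values were those of starch 3, with 1 count, control 8, with 2 counts, and control 5, at 0.996 CPM. The next lowest was starch 10, at 15.3 CPM. Means were 88.8 ± 68.4 CPM on starch (SD, n = 11) and 94.8 ± 89.7 CPM in control piglets (SD, n = 10), a log2 fold change of -0.09 (SE 0.79, 95% confidence interval -1.72 to 1.53, unadjusted p = 0.906, edgeR). The sign of this value changed with single piglets and with the test, and it was 0.46 with voom. Without starch 3, control 5 and control 8 the gene read 97.6 ± 65.1 CPM on starch (SD, n = 10) and 118 ± 84.8 CPM in control piglets (SD, n = 8), and the log2 fold change was -0.28 (unadjusted p = 0.591). The SD of log2 CPM over 21 piglets was 2.78, higher than in 99.8% of genes tested, and 1.28 over the remaining 18.

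The level of SLC5A12 followed the genes of mature enterocytes. A score for each cell type was taken as the mean over its listed genes of log2 CPM centred over the 21 piglets. The enterocyte score lay between -5.41 and -4.44 in the 3 piglets that stood apart and between -0.29 and 1.82 in the others, so the relation is given within the 18. There r was 0.81 (permutation p = 5e-05, adjusted p = 0.002) and rho 0.86 (adjusted permutation p = 0.0016). The adjustment ran over 80 pairs of a gene and a score. Without the 2 piglets farthest from the median of SLC5A12, r was 0.80. It was 0.80 among 10 starch piglets and 0.83 among 8 control piglets. Some other scores ran as far from 0 within a diet. For macrophages r was -0.82 on starch and -0.03 in control piglets. For the stem and Paneth score it was -0.28 on starch and -0.83 in control piglets. Neither of these scores passed with SLC5A12 over the 18. All 11 enterocyte genes had a positive r with SLC5A12, from 0.15 for FABP2, a fatty acid binding protein, to 0.82 for CDHR5, a brush border cadherin. SLC5A12 was also related to the list of proximal enterocyte genes (r = 0.75, permutation p = 0.00036, adjusted p = 0.0096; rho = 0.81, permutation p = 6e-05, adjusted p = 0.0024). That list rests on 4 tested genes, GATA4, RBP2, SLC40A1 and CYBRD1. With the ileal list, which holds the bile acid binding protein gene FABP6, r was 0.01 over the 18 (permutation p = 0.957) and rho 0.05.

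SLC5A8, the sodium-coupled carrier with high affinity for butyrate, propionate and lactate, was present in every piglet. It lay between 23.8 and 131 CPM in starch piglets, with a median of 64.6 CPM, and between 21.3 and 123 CPM in control piglets, with a median of 44.7 CPM. The lowest values were those of starch 3 at 23.8 CPM, control 8 at 21.3 CPM and control 5 at 31.8 CPM. Without these 3, starch piglets lay between 53.6 and 131 CPM and control piglets between 32.5 and 123 CPM. The diets overlapped, and control 9, control 10 and control 3 had 123, 101 and 84.6 CPM. Means were 70.9 ± 27.5 CPM on starch (SD, n = 11) and 57.4 ± 33.9 CPM in control piglets (SD, n = 10). The log2 fold change was 0.30 (SE 0.29, 95% interval -0.30 to 0.91, unadjusted p = 0.307, edgeR). Without starch 3, control 5 and control 8 it was 0.22, at 75.6 ± 23.8 CPM on starch (SD, n = 10) and 65.1 ± 33.5 CPM in control piglets (SD, n = 8). It was 0.50 without control 9 (unadjusted p = 0.0819).

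Unlike SLC5A12, SLC5A8 had a negative r with the enterocyte score among the 18 piglets (r = -0.60, permutation p = 0.00912, adjusted p = 0.146; rho = -0.55), which did not pass the adjustment. Within the diets this r was -0.28 among 10 starch piglets and -0.78 among 8 control piglets. Over all 21 piglets r was 0.55 (permutation p = 0.00838, adjusted p = 0.0279) and rho 0.03, so the sign turned with the 3 piglets that stood apart. The closest relation of SLC5A8 over the 18 was with the list of stem and Paneth cell genes (r = 0.82, permutation p = 4e-05, adjusted p = 0.002, and rho = 0.78, permutation p = 0.00027, adjusted p = 0.0072). Without the 2 piglets with the most distant SLC5A8, control 9 and starch 6, r was 0.78. Within the diets r was 0.87 in 10 starch piglets and 0.79 in 8 control piglets. Other scores also ran high within a diet. For endothelium r was 0.88 in control piglets and 0.36 on starch, and for fibroblasts 0.29 in control piglets and 0.74 on starch. Neither of these scores passed over the 18. All 6 tested genes of the stem and Paneth list had a positive r with SLC5A8. The values ran from 0.24 for SMOC2, a matrix protein of the crypt base, to 0.84 for OLFM4, a crypt gene, and LGR5, a receptor of intestinal stem cells, was among the 6. The relation did not extend to the piglets that stood apart. Their stem and Paneth scores, 0.07 to 0.52, lay within the range of the others, -0.70 to 0.66, while their SLC5A8 levels were the lowest in CPM. Control 5 was close to the next piglet, control 6, at 31.8 and 32.5 CPM. By FPKM control 5 was not among the lowest, at 22.2 FPKM against 15.81 FPKM in control 6. Over all 21 piglets the pair did not pass.

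**Figure D2:**
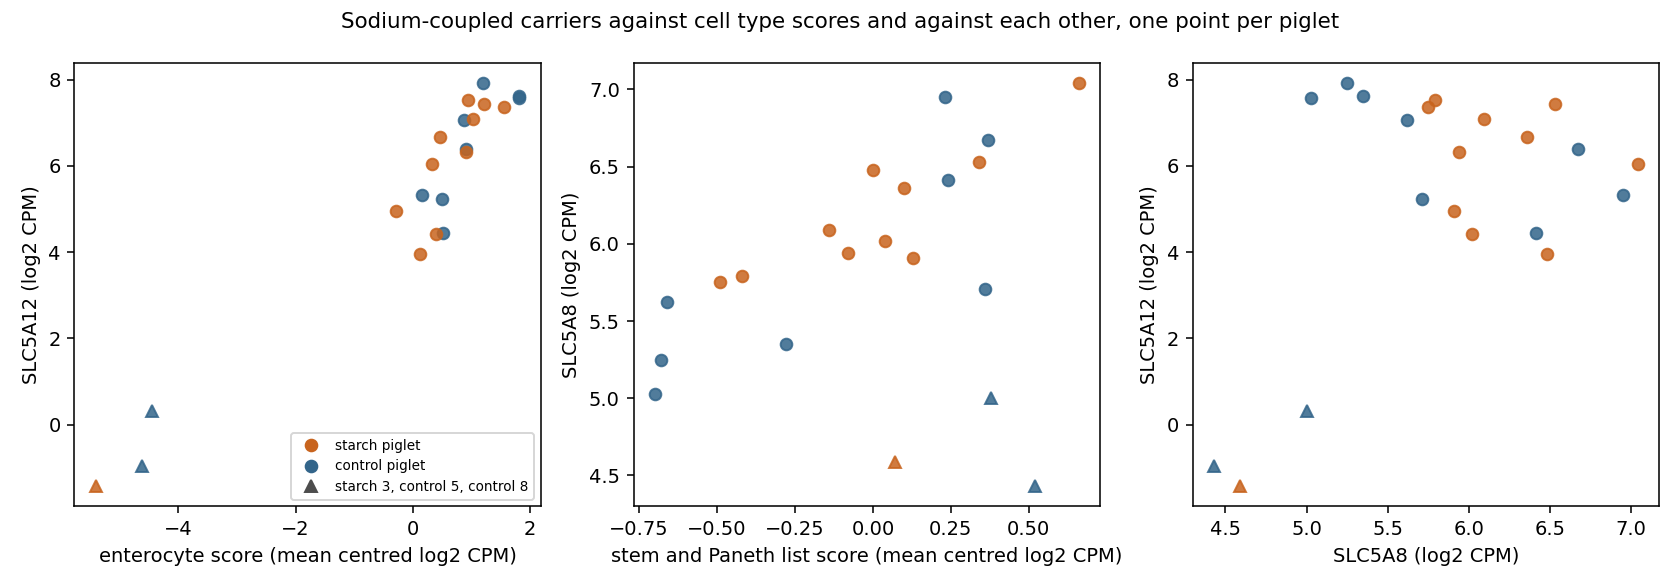
SLC5A12 against the enterocyte score, SLC5A8 against the stem and Paneth score, and SLC5A12 against SLC5A8, each in log2 CPM or mean centred log2 CPM with 1 point per piglet (orange starch, blue control). Triangles are starch 3, control 5 and control 8, and among the other 18 piglets r was 0.81, 0.82 and -0.48 in the panels from left to right.

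Between members, 0 of 10 pairs passed over the 18 piglets. For SLC5A8 with SLC5A12 r was -0.48 (permutation p = 0.0444, adjusted p = 0.13; rho = -0.53, permutation p = 0.0242, adjusted p = 0.242). Of like size were r for SLC5A8 with FFAR4, at -0.49 (permutation p = 0.0377; rho = -0.31), for FFAR2 with FFAR4, at 0.47 (permutation p = 0.0521; rho = 0.31), and for SLC5A12 with FFAR2, at -0.46 (permutation p = 0.0516; rho = -0.43), each with an adjusted p of 0.13 for r. Without the 2 piglets most distant in FFAR2, control 1 and control 10, r of FFAR2 with FFAR4 was 0.15. In the 18 piglets FFAR4 lay under the filter on low counts. For SLC5A8 with SLC5A12, r within the diets was -0.16 among 10 starch piglets and -0.73 among 8 control piglets. The difference between these values was not tested.

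SLC16A3, the proton-coupled carrier through which glycolytic cells release lactate, was the steadiest of the 5. It lay between 10.7 and 45.9 CPM in starch piglets, with a median of 22.9 CPM, and between 12.5 and 35.7 CPM in control piglets, with a median of 16.3 CPM. The highest levels were those of starch 3 and control 7, and the lowest that of starch 9. Means were 23.8 ± 9.77 CPM on starch (SD, n = 11) and 19.7 ± 7.93 CPM in control piglets (SD, n = 10), a log2 fold change of 0.27 (SE 0.24, 95% interval -0.22 to 0.77, unadjusted p = 0.266, edgeR). Without starch 3, control 5 and control 8 it was 0.21, at 21.6 ± 6.84 CPM on starch (SD, n = 10) and 18.7 ± 8.44 CPM in control piglets (SD, n = 8). Without starch 3 alone it was 0.13, and without starch 9 and starch 10 it was 0.43 (unadjusted p = 0.0673). None of the 16 cell type scores passed with SLC16A3 over the 18 piglets. The largest r was with the B-cell score, at -0.53 (permutation p = 0.0201, adjusted p = 0.201; rho = -0.37). Within the diets it was -0.87 among 10 starch piglets and -0.01 among 8 control piglets, a difference that was not tested. The highest B-cell scores, 3.77 and 4.27, were those of starch 9 and starch 10, the starch piglets with the lowest SLC16A3.

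FFAR2, the receptor for acetate and propionate on enteroendocrine cells and neutrophils, had between 1 and 50 counts per piglet. It lay between 0.523 and 5.80 CPM in starch piglets, with a median of 1.30 CPM, and between 0.119 and 3.22 CPM in control piglets, with a median of 1.56 CPM. Starch 3 was highest, with 50 counts (exact 95% Poisson interval 37.1 to 65.9 counts), and control 10 lowest, with 1 count (0.0253 to 5.57 counts). These intervals cover counting error only. Means were 1.98 ± 1.54 CPM on starch (SD, n = 11) and 1.66 ± 0.994 CPM in control piglets (SD, n = 10). The log2 fold change was 0.27 (SE 0.43, 95% interval -0.62 to 1.15, unadjusted p = 0.539, edgeR), and -0.05 without starch 3. Without starch 3, control 5 and control 8 it was 0.09, at 1.60 ± 0.931 CPM on starch (SD, n = 10) and 1.51 ± 0.974 CPM in control piglets (SD, n = 8). The NCBI RefSeq table lists a further gene, FFAR2-L, on the same chromosome, and in 2 piglets the count of FFAR2 was not whole. Reads may be divided between FFAR2 and another gene, which was not tested.

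FFAR2 had a positive r with the macrophage score over the 18 piglets (r = 0.71, permutation p = 0.00118, adjusted p = 0.0236; rho = 0.61, adjusted p = 0.17), which passed for r and not for rho. All 10 tested macrophage genes had a positive r with it, from 0.54 for the scavenger receptor gene MARCO to 0.71 for the mannose receptor gene MRC1. Within the diets r was 0.68 among 10 starch piglets and 0.76 among 8 control piglets. Over all 21 piglets FFAR2 and the macrophage score passed in r (0.71, adjusted permutation p = 0.00354) and rho (0.66, adjusted permutation p = 0.0282). That list summed to 424 to 3435 CPM in starch piglets and 371 to 2491 CPM in control piglets, highest in starch 3 and in control 8 and control 5. Neutrophil genes could not be scored, as 2 of 12 listed genes, CSF3R and MMP9, passed the filter. The 8 matched neutrophil genes, among them S100A12, summed to 3.16 to 501 CPM on starch and 2.83 to 621 CPM in control piglets, with starch 3 and control 8 highest in their diets. Of the matched genes in both lists none was at 0 in every piglet, and the part of these cells in the FFAR2 level was not tested. With the enteroendocrine score r was 0.19 over the 18 piglets (permutation p = 0.447; rho = 0.31). Within the diets it was -0.12 among 10 starch piglets (rho = 0.13) and 0.50 among 8 control piglets (rho = 0.83). The difference between the diets was not tested.

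FFAR4, the receptor for long-chain fatty acids found on enteroendocrine cells, macrophages and fat cells, was highest in the 3 piglets short of enterocyte transcripts. It read 4.75 CPM in starch 3, 11.8 CPM in control 8 and 7.97 CPM in control 5, and 0.238 to 2.74 CPM in the other 18. Over all piglets it lay between 0.433 and 4.75 CPM on starch, with a median of 1.52 CPM, and between 0.238 and 11.8 CPM in control piglets, with a median of 1.18 CPM. Means were 1.69 ± 1.12 CPM on starch (SD, n = 11) and 2.94 ± 3.82 CPM in control piglets (SD, n = 10). The log2 fold change was -0.80 (SE 0.53, 95% interval -1.90 to 0.30, unadjusted p = 0.145, edgeR). It rested on single piglets, being -0.23 without control 8, -0.50 without control 5 and -1.11 without starch 3. Without all 3 the gene fell under the filter on low counts, so its entry into the test of diet depended on them. It then read 1.38 ± 0.494 CPM on starch (SD, n = 10) and 1.21 ± 0.73 CPM in control piglets (SD, n = 8). The macrophage scores of these piglets (1.71 to 2.20) lay above those of the other 18 (-1.47 to 0.94), and their smooth muscle scores (0.61 to 1.01) above -0.77 to 0.56. The enteric neuron and glia scores were apart as well, at 0.46 to 0.58 in the 3 and -0.59 to 0.26 in the others. Adipocyte scores, at 0.29 to 0.84 in the 3 and -0.53 to 0.30 in the others, met at the edge, and goblet scores overlapped, at 0.59 to 1.76 and -0.75 to 0.81. Within the 18, where FFAR4 had 2 to 17 counts, no score passed with it. The r ran from -0.45 with the stem and Paneth score to 0.31 with the epithelium score. The part of any of these cells in the FFAR4 level was not tested.

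**Figure D3:**
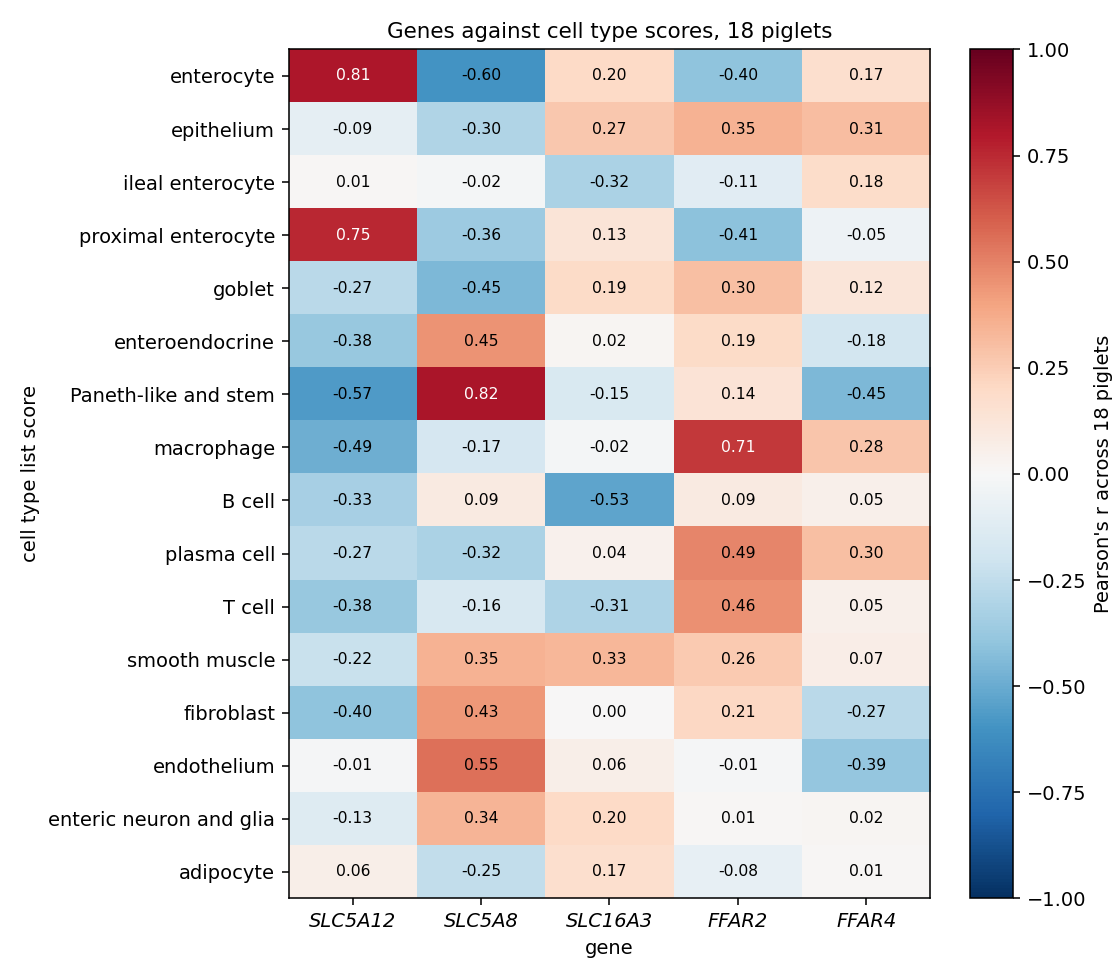
Pearson's r of each measured gene (columns) with each of 16 cell type scores (rows) over the 18 piglets without starch 3, control 5 and control 8, in red where positive and in blue where negative. The 3 pairs that passed in both r and rho are SLC5A12 with the enterocyte (0.81) and proximal enterocyte (0.75) scores and SLC5A8 with the stem and Paneth score (0.82).

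The genes whose pattern over the 21 piglets was most like that of each member were taken by Spearman's rho among 11284 tested genes with a symbol. For SLC5A12 these were MCOLN2 (0.94), NPC1L1, the carrier of dietary cholesterol (0.94), NAGS, a mitochondrial enzyme of arginine synthesis (0.93), PLA1A (0.93) and KCNJ13, a potassium channel (0.93). They were also the closest 5 over the 18 piglets. For SLC5A8 they were PLCH1 (0.85), the mitochondrial transhydrogenase gene NNT (0.84), the water channel gene AQP1 (0.84), RFX6, a transcription factor of enteroendocrine cells (0.83), and ZNF711 (0.83). Over the 18 piglets their rho with SLC5A8 was 0.73 to 0.79, and many other genes came closer. SLC16A3 was most like ATN1 (0.87), COG7 (0.79), the glycolytic enzyme gene PFKL (0.76) and RTN2 (0.75). FFAR2 was most like IGSF6, a surface protein of myeloid cells (0.81), ENPP6 (0.79), SH3RF2 (0.79), IER3 (0.77) and the nucleotide receptor gene P2RY6 (0.76). FFAR4 was most like DUSP14 (0.78), BIRC3, an inhibitor of apoptosis (0.75), ANGPTL7 (0.75), SHISA5 (0.74) and the epithelial laminin gene LAMA3 (0.73), and for these rho was 0.59 to 0.66 over the 18.

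The files also divide each gene among transcripts. SLC16A3 had 3, of which those of 1377 coding bases held the same expected count as each other in 21 of 21 piglets. Reads were therefore shared equally between them, and the gene sum is the usable value. The third SLC16A3 transcript, of 1425 coding bases, held 19.6 ± 15.2% of the gene on starch (SD, n = 11) and 21.8 ± 12.9% in control piglets (SD, n = 10), from 0.0% in starch 9 and starch 10 to 53.7% in starch 6. SLC5A12 was counted mostly on its transcript of 1860 coding bases, which held a median of all of the gene on starch and 99.2% in control piglets. The shorter transcript, of 1716 bases, was listed in 7 piglets and was the sole one in starch 3 and control 8, with their 1 and 2 counts. FFAR4 was split between transcripts of 1086 and 957 coding bases, and the longer held a median of 85.8% on starch and 74.5% in control piglets, with shares from none to all of the gene in both diets at these low counts. SLC5A8 and FFAR2 had 1 transcript each.

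In the wider pathway, as among the members, no gene passed the test of diet. Lists of 115 symbols around the set were drawn up. Of these, 99 had an identifier and 81 were tested, and 0 of 81 passed an adjusted p of 0.05 or an unadjusted p of 0.05 (edgeR). On starch 47 were higher and 34 lower in direction, with a median log2 fold change of 0.03, where 51.1% of all genes tested were higher. The lists were chosen with earlier results of these data known, so their directions are given as a description.

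Among other monocarboxylate carriers and chaperones 2 of 10 tested genes were higher on starch in direction and 8 lower. SLC16A11, a carrier of pyruvate in human cells, read 1.18 ± 0.539 CPM on starch and 1.81 ± 0.945 CPM in control piglets (log2 fold change -0.60, unadjusted p = 0.0721; SD, n = 11 and n = 10 here and below). SLC16A7, a carrier with high affinity for pyruvate and lactate, had -0.43, which was 0.02 without control 5, and SLC16A6, a carrier of ketone bodies, 0.30. Of the 9 tested genes for acid and bicarbonate exchange 2 were higher and 7 lower. CA2, a carbonic anhydrase, had a log2 fold change of 0.31 and the anion exchanger gene SLC4A2 -0.09. SLC4A2 read 140.3 ± 42.7 CPM on starch and 149.6 ± 42.2 CPM in control piglets.

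Of 7 tested genes for other metabolite receptors and their signalling 3 were higher and 4 lower. GPR84, the receptor of myeloid cells for medium-chain fatty acids, again singled out the same piglets. It read 558 CPM in starch 3, 88.7 CPM in control 8 and 34.6 CPM in control 5, and at most 5.18 CPM elsewhere. Its log2 fold change was 2.00 in edgeR (95% interval -0.86 to 4.86, unadjusted p = 0.162) and -1.16 in DESeq2. The edgeR value rested on starch 3, the only starch piglet above 5.18 CPM. With 1 piglet left out it ran from 1.82 to 3.43 where the gene could be fitted. Without starch 3 the gene fell under the filter on low counts, so that range holds no such fit. GNAI2, an inhibitory G protein subunit, and the receptor gene GPR35 both had -0.08. The lactate receptor gene HCAR1 and the butyrate receptor gene HCAR2 had no identifier in the table of names.

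In metabolism, lactate and pyruvate genes were split at 7 higher and 6 lower of 13. PDK1 and PDK3, kinases that switch off pyruvate dehydrogenase, had 0.34 and -0.11, and PC, encoding pyruvate carboxylase, -0.25. Of 16 genes that activate and oxidise acetate, propionate and butyrate 11 were higher and 5 lower. MMUT, the mutase that ends propionate breakdown, read 80.5 ± 14.0 CPM on starch and 68.4 ± 13.1 CPM in control piglets (log2 fold change 0.23, 95% interval -0.03 to 0.49, unadjusted p = 0.0744). PCCB, a subunit of the carboxylase that starts it, had -0.19, and MMAB, which makes the cobalamin cofactor of MMUT, 0.17. Of 6 tested ketone body genes 5 were higher and 1 lower. OXCT1, which lets cells burn ketone bodies, had 0.21, BDH2 -0.33 and BDH1 0.17.

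All 5 tested hormone genes of enteroendocrine cells were higher on starch in direction, with none past the test. For CCK, encoding cholecystokinin, the log2 value was 0.50 (95% interval -0.30 to 1.30), for NTS, encoding neurotensin, 0.41, and for GCG, encoding the glucagon-like peptides, 0.18. All 3 genes were lowest in starch 3 among starch piglets and in control 5 among control piglets, with NTS at 16.9 and 11.0 CPM there. Without starch 11 the value of GCG was -0.12. Of 16 genes of hypoxia and glycolysis 13 were higher and 3 lower. PFKFB3, a regulator of glycolysis, had 0.64 (95% interval -0.25 to 1.54), VEGFA, the vascular growth factor, 0.27 and PFKP, a phosphofructokinase, 0.12.

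**Figure D4:**
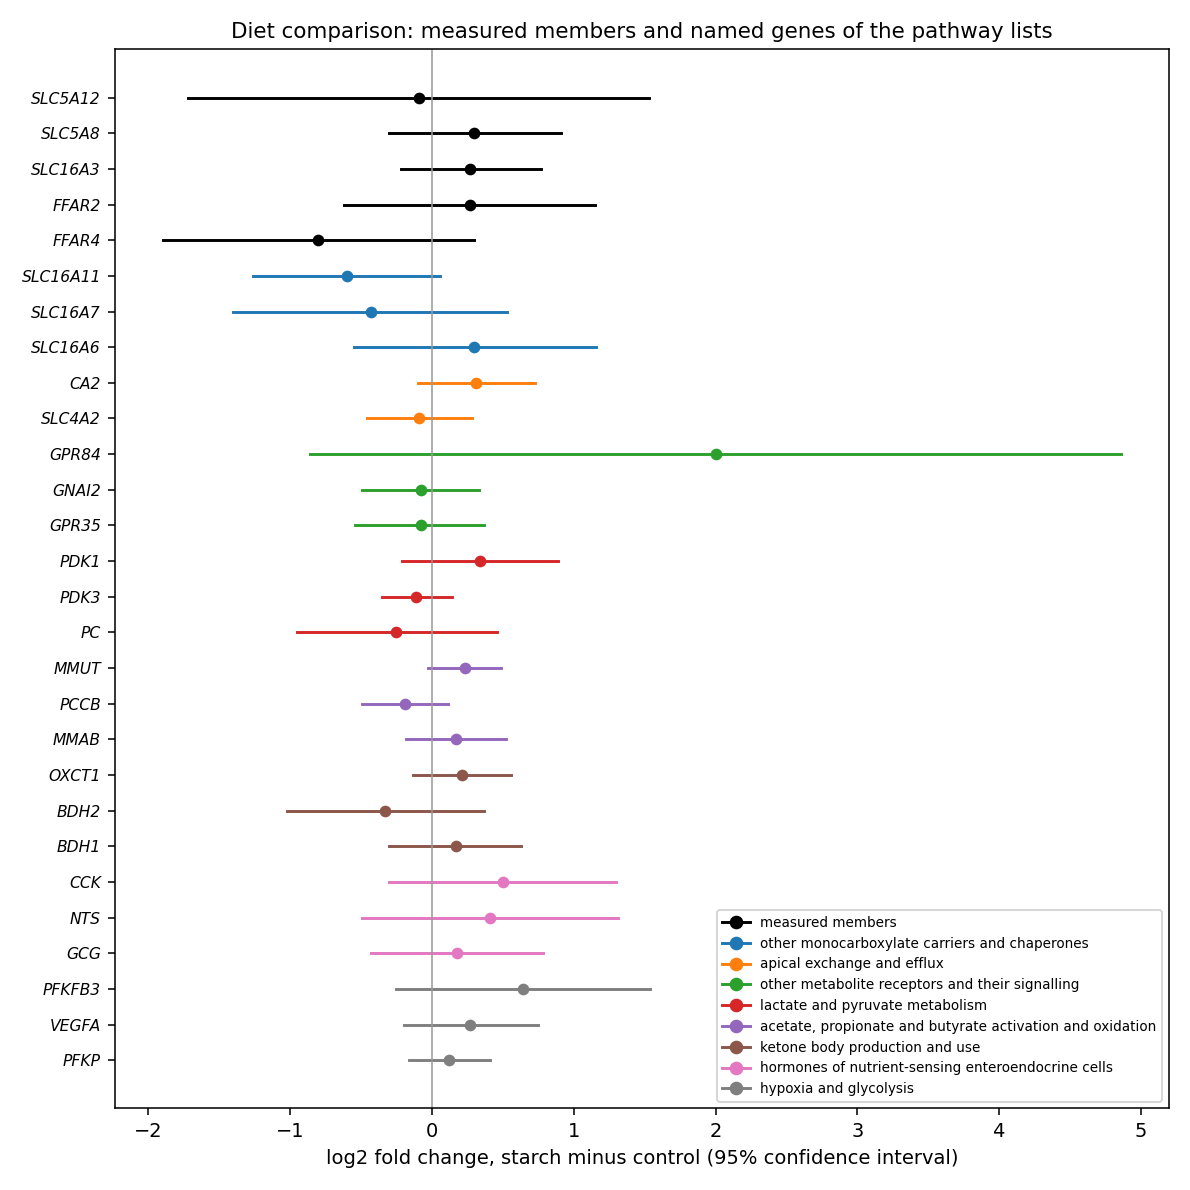
Log2 fold change, starch minus control, with its 95% confidence interval from edgeR for the 5 measured members (black) and up to 3 genes of smallest p in each pathway list (coloured by list). Every interval crosses 0, and the widest belong to GPR84 (-0.86 to 4.86) and SLC5A12 (-1.72 to 1.53).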

How the data were processed

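RNA sequencing of distal small intestine was deposited as 1 table per piglet, per the file headers with an expected count and an FPKM value for each Ensembl pig transcript. The deposited expected counts were not normalised. FPKM, as deposited, is already normalised to transcript length and library depth. Nearly all lengths are multiples of 3 (99.96 to 99.97% per file), so they are coding lengths. HISAT and DESeq2 are named in the submitters' processing notes, without version or role, and the sources used here name neither the genome build nor the counter. Total RNA was extracted with miRNAeasy kits, per the labels' protocols.

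Expected counts were summed per gene and rounded, with transcripts missing from a file taken as 0. Symbols matched 14276 of 18661 genes (76.5%). Diet was tested with edgeR 4.0.16 in R 4.3.3 (quasi-likelihood F test, TMM scaling, filterByExpr with a minimum count of 10 and a minimum total of 15, diet as the only term, 21 piglets), with Benjamini-Hochberg adjustment over 13127 genes at a threshold of 0.05. All 5 members passed the filter. Standard errors derive from the F statistic. Piglets are separate animals, but a shared litter is not recorded. Correlations used log2 CPM (prior count 2), two-sided permutation tests of 100000 resamples and adjustment within 10 pairs of members and 80 pairs of a member and a score. A pair passed when r and rho both had an adjusted p under 0.05. A score needed at least 3 tested genes. Correlations were computed over 21 piglets and, since 3 formed a separate cluster, are given over the other 18. Values correlated across piglets share libraries and their depth.

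The members, lists and tests were chosen with earlier results of these data known, including the 3 piglets that stand apart. Named genes are every member, the 3 of smallest p in each pathway list, the 5 most like each member, and the gene of highest mean CPM in a cell type list. Genes naming the ends of a range, and GATA4, RBP2, SLC40A1, CYBRD1, LGR5, EPCAM, HCAR1, HCAR2, CSF3R and MMP9, were chosen outside that rule. A few genes that the rule names are not reported here. Alternatives were RLE and upper-quartile scaling, DESeq2 1.42.0, voom and limma 3.58.1 on log2 FPKM with pseudocounts of 0.1, 0.5 and 1 (a minimum FPKM of 1 in 10 piglets, and once unfiltered), other filters, the replicate number as a block, cell type scores as covariates and piglets left out. The enterocyte score as a covariate, and correlations without starch 9 and starch 10, were added after seeing the data. The edgeR fit and the permutation test were also run on simulated data.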

Additional observations from a re-analysis of the deposited data

Results flagged for a closer look

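Among 26 sets of 10 control values (levels of the members and cell type scores), 1 held a value far from the others. The adipocyte score of control 8 was 0.84, and the next highest control value was 0.29, a gap of 0.509 of the whole range, where the critical value is 0.466. Chance gives about 1 such set in 20. The list rests on 5 tested genes, and ADIPOQ and PLIN1, which define fat cells, did not pass the filter on low counts. Control 8 also had the highest FFAR4 level, 11.8 CPM.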

How the results depend on the processing

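Under 38 alternatives to the diet test 0 genes and 0 members passed each time, with 104 to 524 genes at an unadjusted p of 0.05. Of 1088 fold changes followed in 29 genes, 24 turned in sign and 0 passed. SLC5A12 was 0.46 with voom, 0.30, 0.33 and 0.26 with limma on log2 FPKM plus 0.5, 0.1 and 1, 0.30 with no filter there, 1.31 and 0.13 with the smooth muscle and enterocyte scores as covariates, and 0.01 without starch 9 and starch 10. GPR84 was -1.16 with DESeq2 and PC 0.10 with the smooth muscle score. The cause was not tested. With 1 piglet left out at a time the log2 fold change ran from -0.26 to 0.18 for SLC5A12, from -0.05 to 0.42 for FFAR2, from -0.79 to 0.02 for SLC16A7, from -0.21 to 0.03 for GNAI2, from -0.16 to 0.02 for GPR35 and from -0.12 to 0.30 for GCG. SLC16A3, SLC5A8 and FFAR4 kept their direction wherever they could be fitted, from 0.13 to 0.43, from 0.18 to 0.50 and from -1.11 to -0.16. FFAR4 could not be fitted without starch 3, control 5 and control 8 together. There its mean ran the other way, at 1.38 CPM on starch and 1.21 CPM in control piglets.

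Same-numbered piglets did not deviate together (median r 0.02 over 10 pairs, 4 of them above 0.1; for 1 of 10 starch piglets the best control had its number). With the replicate number as a block 0 genes passed, and FFAR4 was -0.23, SLC5A12 -0.02 and GCG -0.07. Without the block the same 20 piglets gave -0.78 for FFAR4, 0.01 for SLC5A12 and -0.12 for GCG.

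Over all 21 piglets 7 pairs of a member and a score passed, against 3 without starch 3, control 5 and control 8. Over the 21, SLC5A12 passed with the enterocyte, proximal enterocyte, macrophage (r = -0.84), fibroblast (-0.69) and stem and Paneth (-0.51) scores. The others were SLC5A8 with the goblet score (-0.72) and FFAR2 with the macrophage score (0.71). Of the pairs of members 0 passed over all 21 and 3 on residuals from the diet means. Without those 3 piglets r turned to 0.29 for SLC16A3 with SLC5A12, -0.48 for SLC5A8 with SLC5A12 and 0.24 for SLC5A12 with FFAR4. Low counts limit FFAR2 and FFAR4.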
